A study of Mus musculus with 6 samples.

Results

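The genes described are 10 that handle zinc in the cell, chosen by name from the 34745 genes of the deposited table. They are 6 members of the ZIP family of zinc importers (Slc39a4, Slc39a1, Slc39a6, Slc39a7, Slc39a10 and Slc39a14), 2 members of the ZnT family that carries zinc out of the cytosol (Slc30a1 and Slc30a5), and the metallothioneins Mt1 and Mt2. The list was drawn up when values of these libraries were already known, so the levels and fold changes of the 10 genes are a description and not an independent test. MLE-12 is a mouse lung epithelial line that was derived from a tumour driven by a viral large T antigen under the surfactant protein C promoter. The cells of both groups were transfected with a lipid reagent, 3 libraries with a pCMV-SPORT6 plasmid carrying the open reading frame of the nuclear receptor NR4A1 (the NR4A1 group) and 3 with the pCMV-SPORT6 vector (the vector group). The RNA of all cells in the dish was sequenced, and the share of cells that took up the plasmid and the time of harvest for sequencing were not given in the sources used here. No source states that the 3 libraries of a group came from separate transfections, so the p-values measure the spread between these libraries, which may be technical. The comparison asks which transcripts differ when NR4A1 is overexpressed in lung epithelial cells.

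Zinc is a structural or catalytic part of many proteins, and its free level in the cytosol is kept very low. ZIP proteins bring zinc into the cytosol from outside or from organelles, ZnT proteins move it out of the cytosol or into organelles, and metallothioneins are small cysteine-rich proteins that bind and release it. When zinc rises, the transcription factor MTF-1 binds metal response elements in front of the metallothionein genes and of Slc30a1 and raises their transcription. Metallothioneins are also known to respond to glucocorticoids and to oxidative stress.

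The libraries held between 15019038 and 17574340 counts. A level of 3 counts, chosen here as the mark of a very low count, corresponds to between 0.171 and 0.200 CPM (counts scaled to a common library total). Nr4a1 was at 3655 ± 276 CPM in the NR4A1 group and 27.1 ± 2.94 CPM in the vector group (SD, n = 3 each, CPM after TMM normalisation), as the labels say. The epithelial genes Krt8, Krt19, Cdh1, Nkx2-1 and Sftpc were counted in all libraries. Epcam and Cldn7 had at most 22 and 11 counts, both in vector replicate 1, and Cldn4 had at most 1. Krt18 had 164 counts in NR4A1 replicate 2, 21 in vector replicate 1 and at most 14 in the others. Vector replicate 1 also had more counts of some fibroblast markers than the remaining libraries, as described with the metallothioneins. NR4A1 replicate 2 stood apart: the summed level of 6 smooth muscle markers was 320.5 CPM there and between 1.49 and 2.72 CPM in the other 5 libraries, and that of 8 endothelial markers was 135.4 CPM against 7.70 to 8.91. The sum of 10 epithelial markers in that library, 885 CPM, lay within the range of the other 5, 762 to 1015 CPM. Most of that sum was Krt8 and Krt19, while Cdh1 (26.2 CPM) and Nkx2-1 (59.8 CPM) were lowest in that library. Of 7 tested epithelial markers, 4 (Cdh1, Krt8, Nkx2-1 and Sftpb) had groups apart with NR4A1 lower, as had 6.22% of all tested genes, and none passed the threshold described with Slc39a4. The part of these markers in the levels of the zinc genes was not tested. Values without this library are given beside the results of some of the zinc genes that it moves. In such bulk RNA, fewer cells of a type and less RNA per cell cannot be told apart.

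In the vector group, the family was dominated by the metallothioneins and by a few housekeeping transporters. Levels of different genes are compared as FPKM, the deposited value, which scales counts by library total and by a length for each gene. How that length was set is not given in the sources used here. For Slc39a7 and Slc39a3 it comes out longer than the span of the gene. The order of genes and the sums and shares of FPKM are therefore uncertain. In CPM, Slc39a7 was at 91.7 in the vector group, against 74.9 for Slc39a6 and 86.2 for Slc30a5. Mt1 was at 399 ± 45.4 FPKM and Mt2 at 158 ± 14.2 FPKM, followed by Slc39a1 (ZIP1, a plasma membrane importer) at 56.9 ± 3.36 FPKM and Slc30a5 (ZnT5, which loads zinc into the early secretory pathway) at 27.3 ± 1.56 FPKM (SD, n = 3). The vector libraries of these 4 genes did not overlap with those of the next gene in the order. Slc39a6 (ZIP6) at 15.04 FPKM and Slc39a7 (ZIP7, which releases zinc from the endoplasmic reticulum and Golgi) at 14.2 FPKM overlapped with each other, and Slc39a7 also with Slc39a9 (ZIP9) at 12.6 FPKM. Slc39a10 (ZIP10) followed at 10.2 FPKM and Slc39a14 (ZIP14, which also carries manganese and iron) at 2.66 FPKM. Slc30a1 (ZnT1), the exporter of the plasma membrane, was at 0.742 ± 0.0401 FPKM. Slc39a4 was near the bottom of the order, at 0.0778 ± 0.0504 FPKM, place 23 of the 28 ZIP, ZnT and metallothionein genes, and its libraries overlapped with those of neighbours that had only a few counts. Of these 28 genes, 4 had at most 3 counts in every library (Slc39a12, Slc30a8, Slc30a10 and Mt4). The summed level of the 14 ZIP genes was 126.0 ± 8.87 FPKM in the NR4A1 group and 126.0 ± 1.55 FPKM in the vector group, and that of the 10 ZnT genes was 54.7 ± 2.27 against 52.9 ± 2.16 FPKM (SD, n = 3 each). Both differences were smaller than the spread between replicates.

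**Figure D1:**
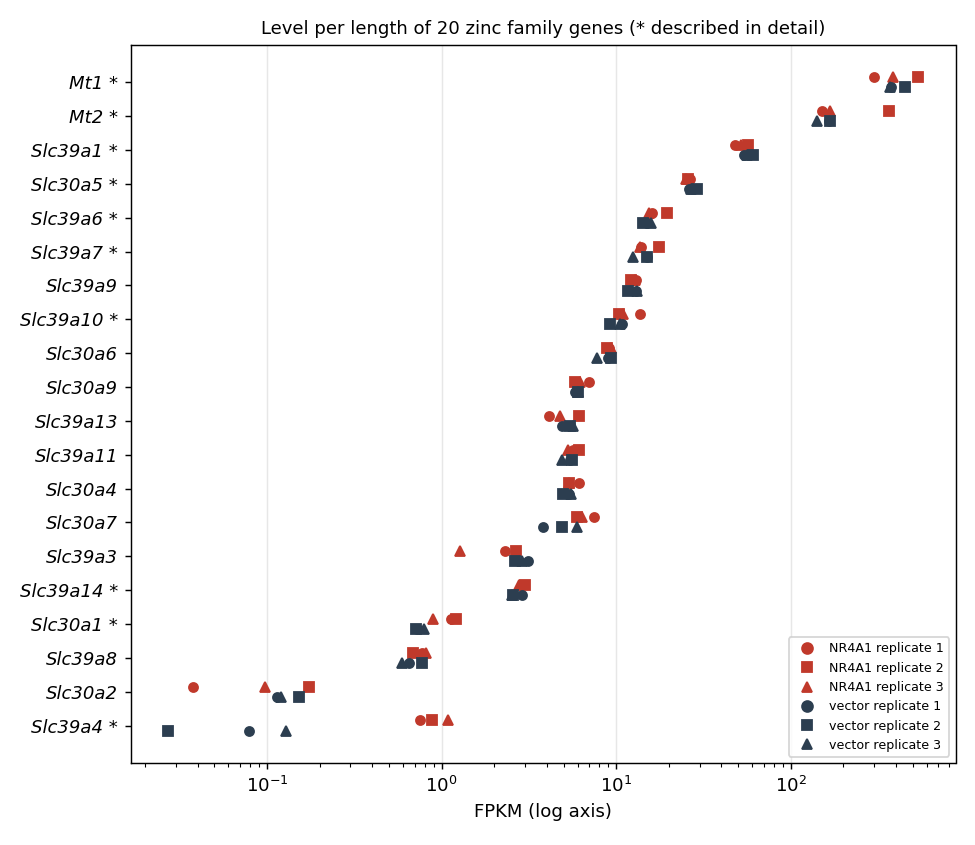
Deposited FPKM (log axis) of the 20 zinc family genes that passed the count filter, ordered by their vector mean; each symbol is 1 library, red for NR4A1 and dark for vector, and an asterisk marks the 10 genes described in detail. The order of most genes was alike in both groups, with Mt1 and Mt2 on top, while Slc39a4 lay between 0.748 and 1.09 FPKM with NR4A1 and at most 0.128 FPKM with vector.

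Slc39a4 encodes ZIP4, the importer that takes up dietary zinc in the intestine and whose loss causes the zinc deficiency disorder acrodermatitis enteropathica. The gene (ENSMUSG00000063354) lies on the minus strand of chromosome 15 from 76612385 to 76616852 of GRCm38, and no annotated gene overlaps it. It had 25, 33 and 42 counts in NR4A1 replicates 1, 2 and 3, and the vector replicates, in the same order as in all such lists, had 3, 1 and 5. Every NR4A1 library was above every vector library. Of the 3 vector libraries, 2 were at or under the 3 counts chosen as the mark of a very low count. The vector level, and the ratio and share made from it, therefore rest on very few counts. After normalisation the level was 2.03 ± 0.372 CPM in the NR4A1 group and 0.172 ± 0.112 CPM in the vector group (SD, n = 3 each). The ratio of the summed counts, 100 against 9, was 11.7, with an exact 95% interval from 5.95 to 26.4 that covers counting error only. In the edgeR quasi-likelihood fit of all 12941 tested genes the log2 fold change was 3.49, its standard error 0.455 and its adjusted p 0.0457.

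All 10 members were tested, and Slc39a4 was the 1 past the threshold, which asked for a 2-fold change and an adjusted p below 0.05. Of all tested genes 0.17% passed it, 0.24% when the fold was not asked for, and 1.24% with an unadjusted p and the fold, and Slc39a4 was the 1 member in each case. Nothing is read from these counts, because the list was made with this comparison known. Slc39a4 passed the count filter through the NR4A1 libraries. The call was lost when any 1 of the 6 libraries was left out, with log2 fold changes from 3.11 to 4.03 and edgeR adjusted p-values from 0.0635 to 0.229. It was also lost with the replicate number as a block (adjusted p = 0.143) and without the count filter (adjusted p = 0.168), whereas DESeq2 gave an adjusted p of 0.000474. Without NR4A1 replicate 2, the library with smooth muscle and endothelial transcripts, the log2 fold change of Slc39a4 was 3.52 (standard error 0.518). Even with NR4A1, Slc39a4 was a minor importer transcript, with 0.721% ± 0.159 of the summed ZIP FPKM against 0.0621% ± 0.0406 in the vector group (SD, n = 3 each).

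**Figure D2:**
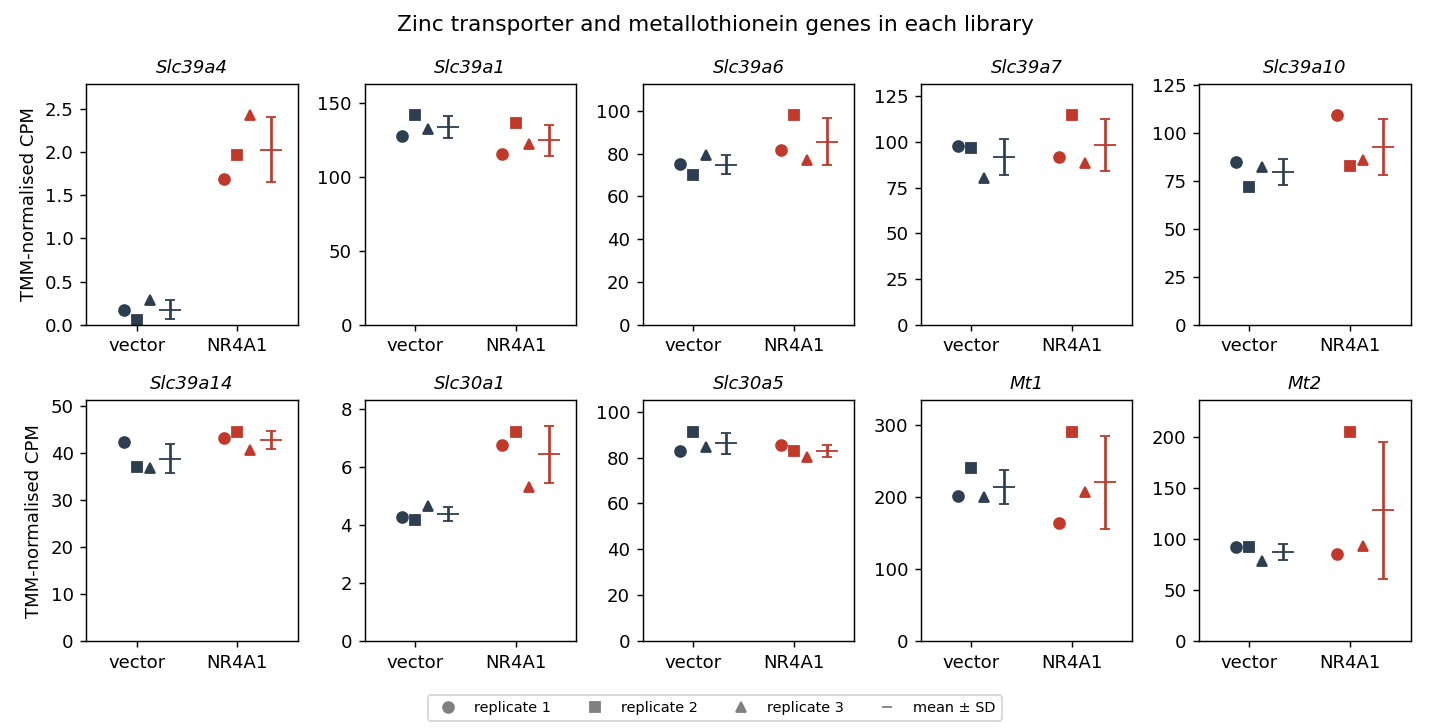
TMM-normalised CPM of the 10 genes in each library, with the mean and SD of each group beside the 3 points and every axis starting at 0. Slc39a4 and Slc30a1 are the panels in which the groups do not overlap, and in the panels of Mt1 and Mt2 the square of NR4A1 replicate 2 lies above the other 5 libraries.

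The other 9 genes stayed within 0.934-fold to 1.47-fold of the vector group, and none of them passed the threshold. Their edgeR adjusted p-values lay between 0.644 and 0.983, 1 of the 9 had an unadjusted p under 0.05 against 6.46% of all tested genes, and DESeq2 also called none of them. Their standard errors, between 0.0779 and 0.322 on the log2 scale, set how small a difference could be seen. The median log2 fold change of the 9 genes was 0.14, and 0.03 without NR4A1 replicate 2, and that of all tested genes was 0.01.

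Among the plasma membrane importers, Slc39a1 had 1710, 2287 and 2116 counts with NR4A1 and 2198, 2373 and 2328 with vector. Its level, 124.7 ± 10.5 against 133.6 ± 7.34 CPM, overlapped between the groups (SD, n = 3 each). The log2 fold change of Slc39a1 was -0.10 (standard error 0.0871) and -0.17 without NR4A1 replicate 2. The processed pseudogene Slc39a1-ps shares 21.8% of the 50-base stretches of Slc39a1 transcripts and had between 9 and 25 counts. Slc39a6, an importer that pairs with ZIP10 in the membrane, had 1211, 1646 and 1334 counts with NR4A1 and 1302, 1174 and 1398 with vector, with NR4A1 replicate 2 highest and the other 5 libraries close together. The log2 fold change of Slc39a6 was 0.19 (standard error 0.112) and 0.09 without NR4A1 replicate 2, and Elp2 on the other strand, with 2715 to 3340 counts, overlaps it by 952 bases. Whether counting used strand is not given in the sources used here. Slc39a10 was counted 1620, 1388 and 1485 times against 1470, 1210 and 1457 times. Its groups overlapped, NR4A1 replicate 1 being the highest library at 109.5 CPM and the other 5 lying between 72.2 and 85.8 CPM. Slc39a14 was counted 637, 747 and 703 times against 731, 621 and 651 times, and vector replicate 1 lay among the NR4A1 libraries. The log2 fold change was 0.21 for Slc39a10 (standard error 0.129), or 0.08 without NR4A1 replicate 1, and 0.14 for Slc39a14 (standard error 0.0886).

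The secretory pathway transporters among the genes described in detail, Slc39a7 and Slc30a5, were close to the vector level. Slc39a7 had 1356, 1926 and 1535 counts with NR4A1 and 1687, 1624 and 1420 with vector. Its log2 fold change was 0.10 (standard error 0.129) and turned to -0.02 without NR4A1 replicate 2. The level of Slc39a7 is uncertain, since 74.5% of its 50-base stretches also occur in Gm20427, an overlapping transcript on the same strand that had between 125 and 309 counts. With the counts of both summed, an alternative chosen after the data were seen, the log2 fold change was 0.04 (standard error 0.120). Slc30a5 was counted 1263, 1390 and 1387 times against 1428, 1530 and 1492 times, which after normalisation is 82.8 ± 2.63 against 86.2 ± 4.55 CPM (SD, n = 3 each). The groups of Slc30a5 overlapped, and the difference was smaller than the SD of the vector group.

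Slc30a1 was the other gene whose groups did not overlap. This exporter lowers cytosolic zinc and is a textbook target of MTF-1. It had 100, 121 and 92 counts with NR4A1 and 74, 70 and 82 with vector, 6.43 ± 0.990 against 4.37 ± 0.245 CPM (SD, n = 3 each). The log2 fold change of 0.56 (standard error 0.184) did not pass (edgeR adjusted p = 0.644) and ranged from 0.46 to 0.67 over the fits that left out 1 library. With Slc39a4, 2 of the 10 genes had groups apart, in both cases higher with NR4A1. Groups did not overlap in 12.9% of all tested genes, in 6.69% with NR4A1 as the higher group and in 6.22% with NR4A1 as the lower. An antisense gene, 1700034H15Rik, overlaps the start of Slc30a1 by 761 bases and had at most 8 counts. These overlapping genes and the pseudogene were looked up after the values were seen.

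**Figure D3:**
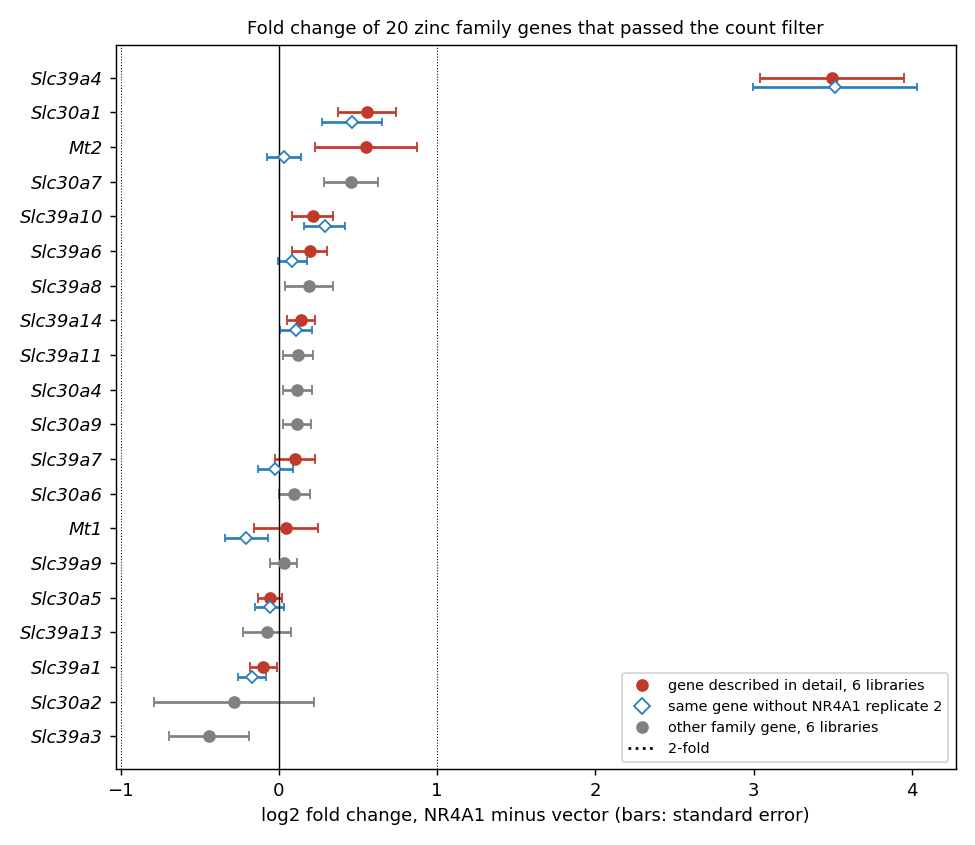
Log2 fold change (NR4A1 minus vector) of 20 zinc family genes with standard errors calculated from the edgeR F statistic. Red circles are the 10 genes described in detail and open diamonds the same genes without NR4A1 replicate 2. Grey circles are the other family genes, and dotted lines mark a 2-fold change. Slc39a4 is the gene beyond the 2-fold line, Mt2 moves from 0.55 to 0.03 without that library, and Mt1 from 0.05 to -0.21.

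The metallothioneins were the most abundant transcripts of the family, and none of the tests called them. Mt1 and Mt2 are neighbours on chromosome 8, Mt2 from 94172618 to 94173567 and Mt1 from 94179089 to 94180325 of GRCm38, both on the plus strand, and no 50-base stretch of either occurs in transcripts of another gene. Mt1 had 2430, 4890 and 3584 counts with NR4A1 and 3478, 4041 and 3528 with vector. Mt2 had 1267, 3437 and 1611 counts with NR4A1 and 1586, 1539 and 1384 with vector. NR4A1 replicate 2 was the highest library for both genes. Mt2 was at 204.8 CPM there and between 78.4 and 93.1 CPM in the other 5 libraries, 2.32 times their mean, and Mt1 was at 291.3 CPM against 164.3 to 241.1 CPM, 1.44 times their mean. The log2 fold change of Mt2 was 0.55 (standard error 0.322) over all libraries and 0.03 (standard error 0.106) without that one. That of Mt1 was 0.05 (standard error 0.201) and -0.21 (standard error 0.134) without it. The ratio of Mt1 to Mt2, in FPKM, was 1.46 in NR4A1 replicate 2, 1.97 and 2.29 in NR4A1 replicates 1 and 3, and 2.26, 2.70 and 2.62 in the vector replicates. Together the 2 genes held 0.0492% of the counts of NR4A1 replicate 2 and between 0.0246% and 0.0337% in the other libraries.

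Other transcripts moved with the metallothioneins in NR4A1 replicate 2. All 6 smooth muscle markers, 7 of 8 endothelial markers and 5 of 8 fibroblast markers were highest in that library. The summed fibroblast markers were at 1561 CPM there and between 946 and 1070 CPM in the other 5 libraries. Dcn made up most of that sum in every library and was lowest in NR4A1 replicate 2, at 878 CPM. Col1a1 was at 249.6 CPM there, 17.5 CPM in vector replicate 1 and between 4.85 and 7.02 CPM in the others. Vector replicate 1 was also next for Col1a2, Col3a1, Pdgfra and Pdgfrb, with 284, 125, 92 and 81 counts. The remaining libraries had at most 45, 32, 18 and 15. Dcn, Lum and Fbln1 in vector replicate 1 lay within the range of the other libraries. These genes were named after their values were seen. The immune markers were low throughout, with 5.72 CPM in NR4A1 replicate 2 and 2.14 to 3.58 CPM in the others, and Ptprc had at most 1 count. Hmox1, the heme oxygenase induced by oxidative stress, was 3.77 times the mean of the other 5 libraries there, and Sgk1, a glucocorticoid-inducible kinase, was 40.9 times that mean (Hmox1, like Slc7a11 and Col1a1, was chosen after its values were seen). Other genes of these lists, also named after their values were seen, moved less than Sgk1. Srxn1 was at 1.69, Zbtb16 at 4.42, Errfi1 at 3.36 and Tsc22d3 at 1.57 times that mean. Fkbp5 was at 104.9 CPM in NR4A1 replicate 2 and between 84.7 and 94.6 CPM in the others, and Klf9 was not highest there. Of the 9 oxidative stress genes, 7 were highest and 2, Gclm and Slc7a11, were lowest in that library, and 6 of 7 glucocorticoid targets were highest there. Of the 10 zinc genes, 6 were highest in NR4A1 replicate 2, as were 22.7% of all tested genes. The part of these markers in the level of the metallothioneins was not tested.

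**Figure D4:**
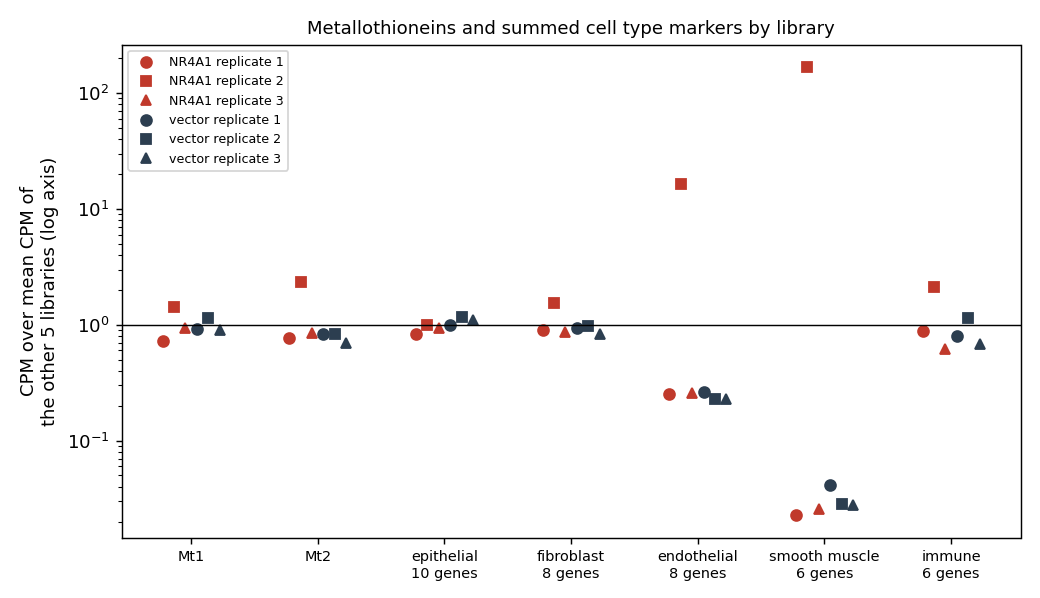
Level in each library divided by the mean of the other 5 (log axis) for Mt1, Mt2 and the summed CPM of 5 marker lists, with red for NR4A1, dark for vector and a line at equality. NR4A1 replicate 2 (red square) is at 1.44 for Mt1, 2.32 for Mt2, 16.3 for endothelial and 167.9 for smooth muscle markers, and at 0.991 for epithelial markers.

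The letters of the metal response element are shown for the genes that are read out by MTF-1 in textbooks and for Slc30a5, because they are the regulatory sequence that the metallothioneins and Slc30a1 have in common. RefSeq windows from 250 bases before to 50 after the gene start (GRCm38.p6) were given for 7 of the 10 genes, in 8 windows, and Slc39a4, Slc39a6 and Slc39a14 had none. The core TGCACNC or TGCGCNC was searched on both strands and found in 4 of the 7 genes, as in 25.7% of all 32817 windows. Mt2 had 4 matches, Mt1 had 3, Slc30a1 had 2 and Slc30a5 had 1, and 7.12% of all windows had at least 2. The 6 matches before the gene start are given 5′ to 3′ on the strand of the gene, with the 7 matched bases in capitals, which read as the reverse complement of the core where the match is on the other strand.
Mt1, 23 bases before the start, chr8:94179057-94179081, plus strand: gtcccgctgTGCACACtggcgctcc
Mt2, 223 bases before the start, chr8:94172386-94172410, plus strand: catcgcctcTGCACCCggcccctcg
Mt2, 128 bases before the start, chr8:94172481-94172505, plus strand: cagacccttTGCGCTCagctccttt
Mt2, 50 bases before the start, chr8:94172559-94172583, plus strand: ggggagggcGTGTGCAggctctgtc
Slc30a1, 43 bases before the start, chr1:191906729-191906753, plus strand: gggggttccGAGTGCAaagcaaagt
Slc30a5, 48 bases before the start, chr13:100833460-100833484, minus strand: tgtccaccaGCGCGCAggcgcagga
The NR4A1 monomer element AAAGGTCA was found in none of the 8 windows on either strand and in 1.51% of all windows. A match of these letters is not a measured binding site, and no match says only that they do not stand in this window.

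Of the 18 further ZIP, ZnT and metallothionein genes, 10 were tested and 0 passed the threshold in the edgeR fit, 1 had an unadjusted p under 0.05, against 6.46% of all tested genes, and DESeq2 also called 0. That gene was Slc30a7 (ZnT7, which loads zinc into the Golgi), counted 1421, 1283 and 1396 times with NR4A1 and 834, 1029 and 1324 times with vector. Its groups did not overlap, but vector replicate 3 at 75.0 CPM lay just below the lowest NR4A1 library at 76.4 CPM, and the difference, 0.45 on the log2 scale with a standard error of 0.171, had an edgeR adjusted p of 0.720. Slc39a3 (ZIP3) had the most negative fold change of the 20 tested family genes, -0.44 (standard error 0.252), with 14.4 to 30.3 CPM against 29.0 to 35.0 CPM. The lowest library of Slc39a3 was NR4A1 replicate 3. The log2 fold change of Slc39a3 was -0.19 without that library and -0.66 without NR4A1 replicate 2. Slc30a2, named after its values were seen, had 4 to 21 counts and a log2 fold change of -0.28 (standard error 0.505). That value was 0.09 without NR4A1 replicate 1, its lowest library, -0.88 without NR4A1 replicate 2 and -0.25 without NR4A1 replicate 3. Slc39a13, also named after its values were seen, moved from -0.08 to -0.25 without NR4A1 replicate 2. The highest of these genes in FPKM, Slc39a9, Slc30a6 and Slc30a9, had log2 fold changes of 0.03, 0.10 and 0.11. The median over the 10 tested genes was 0.10.

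Genes that sense zinc, carry copper or answer the same stresses were compared as lists. Of 7 genes of zinc sensing and release, 5 were tested and none passed the threshold, Klf4 and Gpr39 (a zinc-sensing receptor) having the smallest edgeR adjusted p-values, 0.776 and 0.922. The log2 fold change of Gpr39 was 0.34, and -0.20 without NR4A1 replicate 2. Mtf1, named outside the rule because it encodes MTF-1, was at 28.5 ± 2.64 against 27.5 ± 3.74 CPM (SD, n = 3 each), and the difference was smaller than either SD. None of the 7 copper genes passed, with Cox17 and Slc31a1, the main copper importer, at log2 fold changes of -0.21 and 0.12. None of 9 oxidative stress genes, 7 glucocorticoid targets and 10 endoplasmic reticulum stress genes passed either. Txnrd1 and Gclm led the oxidative stress genes with log2 fold changes of 0.19 and -0.30, Sgk1 and Klf9 the glucocorticoid targets with 3.86 and 0.21, and Herpud1 and Asns the stress genes of the endoplasmic reticulum with -0.26 and -0.23. The value of Sgk1 rested on NR4A1 replicate 2 and was 0.06 without it. The median log2 fold change without that library was -0.16 for the oxidative stress genes, 0.06 for the glucocorticoid targets and -0.09 for the stress genes of the endoplasmic reticulum, and 0.09, 0.21 and -0.02 with it. Gclm was lowest in that library and at -0.16 without it. Of these 5 kinds of list and the zinc ectoenzymes together, 8 of 45 tested genes had an unadjusted p under 0.05, against 6.46% of all tested genes, and 1 passed the threshold, against 0.17%. These lists were also chosen with results of these libraries known, so nothing is read from the counts.

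That gene was Car12, carbonic anhydrase 12, a zinc enzyme on the cell surface that hydrates carbon dioxide. It was counted 137, 229 and 191 times with NR4A1 and 60, 60 and 46 times with vector, and the groups did not overlap. It rose from 3.22 ± 0.534 to 11.3 ± 2.20 CPM (SD, n = 3 each). On the log2 scale the rise was 1.81, with a standard error of 0.217 and an edgeR adjusted p of 0.0428. Without NR4A1 replicate 2 the adjusted p was 0.0331 and the log2 fold change 1.66, while the call was lost when any other library was left out, with adjusted p-values up to 0.229. It was also lost with the replicate number as a block (adjusted p = 0.117) and without the count filter (adjusted p = 0.0841). Car12 is 1 of 10 enzymes listed, of which 7 were tested, with a median log2 fold change of 0.03. Groups were apart with NR4A1 higher in 2 of the 7, against 6.69% of all tested genes. They were apart with NR4A1 lower in 1, against 6.22%. That 1 was Nt5e, named after its values were seen, with a log2 fold change of -0.34 (edgeR adjusted p = 0.313).

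Among the genes whose levels ran most closely with Slc39a4 over the 6 libraries were Klrg2, Aldh1a2, Gab2 and Cytip, with Pearson's r on log2 CPM between 0.991 and 0.997. These values follow from the difference between the groups and are a description without a test. Aldh1a2, the enzyme that makes retinoic acid, was between 59.6 and 70.1 CPM in the NR4A1 libraries and between 39.4 and 42.3 CPM in the vector libraries. Cytip was between 11.3 and 12.1 CPM against 4.77 to 5.50 CPM.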

How the data were processed

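RNA of 6 MLE-12 libraries was compared, grouped by the treatment label. The authors deposited 1 table that lists read counts and FPKM for each library. The submitters' processing notes name HISAT2 2.0.4 and GRCm38.p4; the counting program, its strand setting and its annotation were not given in the sources used here. The deposited FPKM values scale counts by library total and by a length for each gene, and how that length was set was not given. Of 34267 gene identifiers shared with GENCODE M21, 80.8% have the same position. Counts were normalised (TMM), filtered (filterByExpr) and tested with edgeR 4.0.16 in R 4.3.3 (quasi-likelihood, Benjamini-Hochberg over 12941 genes). The standard errors printed are the absolute log2 fold change of that fit divided by the square root of its F statistic. DESeq2 1.42.0 and limma 3.58.1 were alternatives. All were run on simulated data with 3-fold changes in 200 genes, each more abundant than Slc39a4, and limma there used CPM. That check does not cover genes with as few counts as Slc39a4. The members and gene lists were chosen with earlier results of these data known. Named genes were the members, those past the threshold, the 2 with the smallest adjusted p in lists without one, the 3 most abundant and the uncounted of the family, and the 5 most like Slc39a4, of which 1 is not reported here. Within groups, libraries differed beyond counting error (chi-square per degree of freedom of at least 9.73).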

Additional observations from a re-analysis of the deposited data

How the results depend on the processing

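The number of zinc members past the threshold, 1, and that of genes of the stress, copper, sensing and enzyme lists, 1, stayed the same with DESeq2, median-ratio size factors, library totals and no fold threshold. Without the count filter, with the replicate number as a block and with limma on log2(FPKM + 1), log2(FPKM + 0.1) or unfiltered log2(FPKM + 1), both numbers were 0; the filtered limma fits kept genes with a mean of at least 1 FPKM in either group, which Slc39a4 did not reach. With an unadjusted p the second number was 3. With each library left out, the first was 0 in every fit and the second between 0 and 1. The members with groups that do not overlap, 2, numbered between 2 and 4 with a library left out, where separation is easier, and 2 on FPKM. The further family genes past the threshold were 0 throughout. Nr4a1 stayed between 6.93 and 7.16 (log2). With each library left out, the log2 fold change of Mt1 lay between -0.21 (without NR4A1 replicate 2) and 0.22 and was -0.0031 without vector replicate 3, it was -0.011 with limma in its 3 forms (-0.0109 and -0.0110), and that of Slc39a7 lay between -0.024 (without NR4A1 replicate 2) and 0.16; the cause was not tested. All genes past the threshold numbered 22, 65 with DESeq2, 6 without the count filter, 5 with the block, 7 or 8 with limma and between 3 and 28 with a library left out. Distances from the group mean correlated between libraries of 1 number with values of -0.006, 0.008 and 0.204 for replicates 1, 2 and 3. The main fit left the number out. Whether libraries of 1 number share more than that number is not given in the sources used here and was not tested. List medians and single genes of the lists with each library left out were added after seeing the data.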
